A study of Mus musculus with 8 samples.

Results

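The genes described here encode the enzymes that make cholesterol and long-chain fatty acids, together with proteins that regulate those enzymes and a carrier of sterols. They were listed by name for their place in the pathway: 31 genes, all 31 of which were present among the 14247 genes of the table for crypts of the mouse colon. The list holds 7 genes of the mevalonate arm (*Acat2*, *Hmgcs1*, *Mvk*, *Pmvk*, *Mvd*, *Idi1* and *Fdps*), 11 genes from squalene to cholesterol (*Fdft1*, *Sqle*, *Lss*, *Cyp51*, *Tm7sf2*, *Msmo1*, *Nsdhl*, *Hsd17b7*, *Ebp*, *Sc5d* and *Dhcr7*), 5 regulators (*Srebf1*, *Srebf2*, *Scap*, *Insig1* and *Insig2*), 7 genes of fatty acid synthesis (*Acly*, *Acss2*, *Acaca*, *Fasn*, *Scd1*, *Scd2* and *Elovl6*) and 1 carrier of sterols, *Stard4*. All 31 passed the filter on low values, a mean of at least 10 normalised counts over the libraries, as did 13503 genes in all.

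RNA was sequenced from colonic crypts of WT mice at 4 zeitgeber times (ZT, hours after the lights go on): ZT0 and ZT6, when mice rest, and ZT12 and ZT18, when they are active. Each time point had 2 libraries, replicate 1 and replicate 2 by their labels. The labels name no deletion and no treatment. The methods of the study give a C57BL/6 background, young adult age, free access to food and scraping of the crypts from the large intestine after incubation in EDTA. The study states more mice per group for these crypts than there are libraries per time point. Sex, the feeding of these animals before collection and which or how many mice each library came from are not given in the sources used here. An n of 2 below therefore counts libraries, and the p-values measure only the spread between these libraries, which may be technical.

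Cells make cholesterol from acetyl-CoA through mevalonate, squalene and lanosterol, and the same acetyl-CoA is the building block of fatty acids. The transcription factors SREBP1 and SREBP2, encoded by *Srebf1* and *Srebf2*, bind promoters of both pathways. They are held in the endoplasmic reticulum with the escort protein SCAP for as long as INSIG proteins keep it there, which happens when sterols are plentiful; when sterols are scarce, SCAP carries them to the Golgi, where they are cut and released to the nucleus. In the intestine the pathway supplies membranes of the rapidly renewed epithelium, and in the liver it is known to follow the daily cycle of feeding.

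Recovered reads summed over the genes of the table ranged from 14722342 to 25159440 per library, and every member had at least 327 reads in every library. All 10 markers of epithelium and all 8 of colonocytes were above 0 in every library. Epithelial cell types still differed between libraries. At ZT18 the median log2 deviation of 7 goblet markers from their own means was 0.49 in replicate 1 and -0.43 in replicate 2. For 7 enteroendocrine markers it was -1.38 and 0.29. The summed level of 6 smooth muscle markers was 4050 normalised counts in ZT12 replicate 1 and between 7 and 257 in the other libraries, and that of 7 fibroblast markers was 2480 against 3 to 673. In 5 of the other libraries between 3 and 5 of the 6 smooth muscle markers were at 0, *Acta2* among them in 3. The summed level of 7 B and plasma cell markers was 2781 in ZT0 replicate 2 and 141 to 1107 elsewhere, and that of 7 myeloid markers was 1380 there and 15 to 522 elsewhere. The mitochondrial share of counts lay between 6.68% and 22.2%. In replicates 1 and 2 it was 12.2% and 19.8% at ZT0 and 19.2% and 19.4% at ZT6. It was lowest at ZT12, with 6.68% and 7.85%, and at ZT18 it was 22.2% and 9.80%.

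The promoters of 5 members described below are shown because the transcription factors named above act on such sequences. RefSeq start sites on GRCm38.p6 were matched by symbol for 25 of the 31 members; *Fdps*, *Fdft1*, *Sqle*, *Scd1*, *Scd2* and *Stard4* had no entry. In the 250 bases before the start, both strands were searched for a sterol regulatory element (TCACNCCAC), an E-box (CACGTG) and a CCAAT box (CCAAT); none of the 3 contains another, and a gene with several starts was counted once. The sterol regulatory element was found in 1 of 25 members, *Hmgcs1*, and in 1.22% of the 27025 genes with a window. The E-box was found in 5 members (*Dhcr7*, *Hsd17b7*, *Insig1*, *Sc5d* and *Scap*) and in 6.86% of genes, and the CCAAT box in 20 members and in 37.5% of genes. A match is a description of the letters only. Some stretches printed below are shorter than 250 bases, with 201 for *Insig1*, 214 for *Hsd17b7* and 233 for *Lss*. The stretches below run 5′ to 3′ on the strand of the gene, end before the first transcribed base of RefSeq and GENCODE, and carry the 3 motifs in capitals, where ATTGG is CCAAT read on the other strand. *Hmgcs1* (chr13:119690101-119690350, plus strand) is the member with the sterol regulatory element, *Insig1* (chr5:28071162-28071362, plus strand) and *Hsd17b7* (chr1:169969242-169969455, minus strand) hold an E-box beside CCAAT boxes, and *Lss* (chr10:76531355-76531587, plus strand) and *Mvd* (chr8:122443423-122443672, minus strand) hold CCAAT boxes alone:
Hmgcs1: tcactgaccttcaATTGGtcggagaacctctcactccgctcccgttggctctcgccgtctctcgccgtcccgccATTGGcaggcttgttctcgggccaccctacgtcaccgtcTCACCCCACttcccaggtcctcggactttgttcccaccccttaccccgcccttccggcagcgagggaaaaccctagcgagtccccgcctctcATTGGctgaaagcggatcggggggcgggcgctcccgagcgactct
Insig1: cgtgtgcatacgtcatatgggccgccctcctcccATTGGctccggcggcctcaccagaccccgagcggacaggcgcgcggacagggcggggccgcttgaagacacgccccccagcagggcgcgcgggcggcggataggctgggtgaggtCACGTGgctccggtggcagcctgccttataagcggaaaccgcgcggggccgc
Hsd17b7: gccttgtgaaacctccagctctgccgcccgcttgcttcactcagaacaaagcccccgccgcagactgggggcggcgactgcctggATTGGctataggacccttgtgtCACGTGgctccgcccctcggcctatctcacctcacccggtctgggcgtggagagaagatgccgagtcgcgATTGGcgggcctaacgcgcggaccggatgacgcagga
Lss: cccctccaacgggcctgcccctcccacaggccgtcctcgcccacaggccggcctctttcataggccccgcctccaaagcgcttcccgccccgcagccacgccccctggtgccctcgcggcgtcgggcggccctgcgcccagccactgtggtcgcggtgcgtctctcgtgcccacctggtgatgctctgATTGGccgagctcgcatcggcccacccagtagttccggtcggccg
Mvd: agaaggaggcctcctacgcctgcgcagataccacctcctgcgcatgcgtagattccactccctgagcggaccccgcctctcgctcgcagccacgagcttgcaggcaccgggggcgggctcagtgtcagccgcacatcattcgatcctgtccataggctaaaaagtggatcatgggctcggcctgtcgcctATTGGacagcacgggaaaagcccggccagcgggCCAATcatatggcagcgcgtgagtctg

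Levels can be compared between genes only per length, here as normalised counts per kb of merged exons. On that scale *Scd2*, a stearoyl-CoA desaturase that puts a double bond into saturated fatty acids, was the highest member with a mean of 3427 and a range of 2168 to 4951 over the 8 libraries. Its lowest library lay above the highest library of every other member, the next being *Hmgcs1*, the synthase that makes HMG-CoA, with a mean of 1038 and a range of 606 to 1470.1. *Acly*, which makes cytosolic acetyl-CoA from citrate, followed with a mean of 897 and a range of 624 to 1208. The lowest member was *Acaca*, the acetyl-CoA carboxylase that makes malonyl-CoA, with a mean of 66.7 and a range of 57.6 to 89.7, above 45.2% of the genes tested. *Hsd17b7*, *Lss* and *Tm7sf2* came next with means of 91.8, 92.3 and 115 and ranges that overlapped each other and that of *Acaca*. Merged exons join those of all annotated transcripts of a gene, 17074 bases for *Acaca* and 10787 for *Lss*. Where the transcripts present are shorter, the value per kb is too low, which can shift the order of genes and was not tested. Apart from *Scd2*, and from the step between *Acss2*, whose lowest library was at 154, and *Tm7sf2*, whose highest was at 150.3, each member's range overlapped that of its neighbours in the order, as the plot of levels per kb shows. Within the pairs of related genes, *Scd2* was 9.51 to 24.2 times as high per kb as *Scd1* in the 8 libraries, *Insig1* 1.66 to 4.35 times as high as *Insig2*, and *Srebf2* 1.71 to 3.58 times as high as *Srebf1*. *Scd1* and *Scd2* are paralogues, and how reads that match both were assigned is not given in the sources used here.

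**Figure D1:**
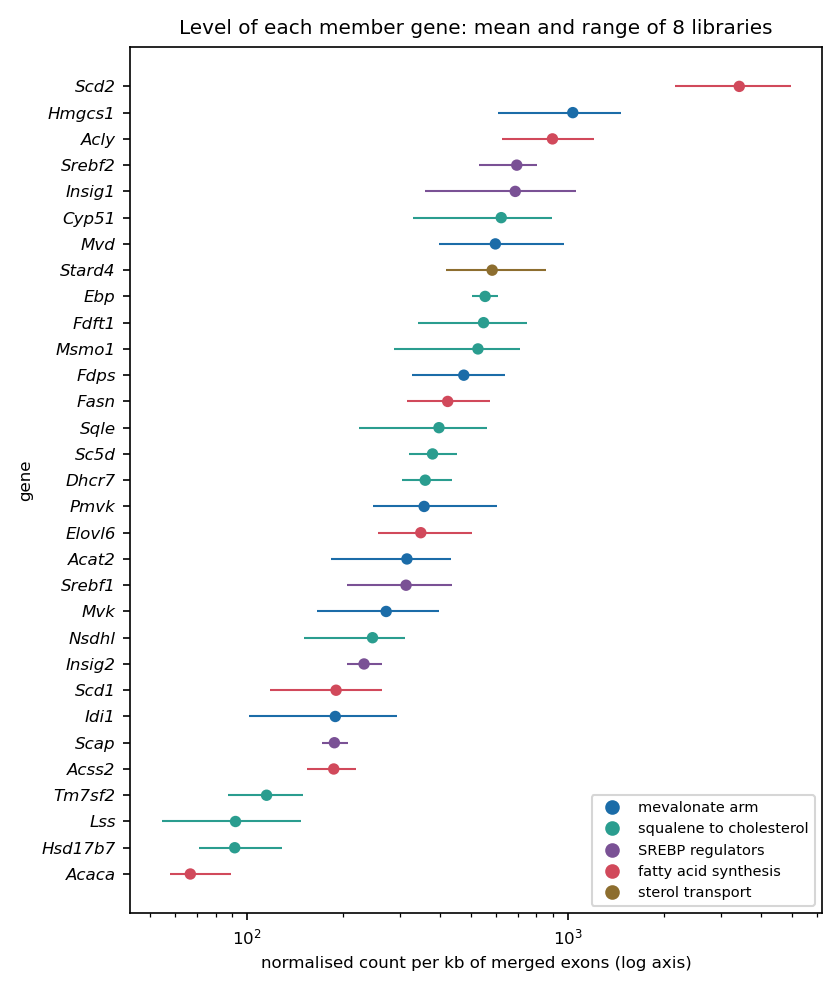
Mean (point) and range over 8 libraries (line) of each member gene, in normalised counts per kb of merged exons on a log axis, coloured by step of the pathway. *Scd2* at a mean of 3427 stands above the other 30 genes, which run from 66.7 for *Acaca* to 1038 for *Hmgcs1*.

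To ask whether these genes followed the time of day, 9 comparisons were fitted over all 13503 genes with limma on log2(normalised count + 1): a cosine with a period of 24 h, an F-test over the 4 time points, the active against the resting time points, and the 6 pairs of time points. A gene was called when its p adjusted by the Benjamini-Hochberg method was under 0.05. With that threshold limma called 0 of the 31 members in each of the 9 comparisons, and the smallest adjusted p of a member was 0.387. The share of all genes called was also small: 0.118% for the cosine, 0.0889% for the F-test, 0.0592% for ZT12 and ZT18 against ZT0 and ZT6, 0.0444% for ZT6 against ZT0, 0.0667% for ZT12 against ZT0, 0.0% both for ZT18 against ZT0 and for the pair of ZT12 and ZT6, 0.0444% between ZT18 and ZT6, and 0.0296% between ZT18 and ZT12. Counts of members called were also 0 with edgeR and with DESeq2 on the recovered reads, where the smallest adjusted p was 0.0746. No change of any member with time was therefore called, and what follows describes levels and their order.

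At an unadjusted p under 0.05, the cosine took 7 of 31 members (*Mvd*, *Idi1*, *Sqle*, *Lss*, *Cyp51*, *Hsd17b7* and *Acly*), beside 9.15% of all genes. The F-test took 2 (*Mvd* and *Lss*), beside 7.03% of all genes, and the active against the resting time points took 0, beside 7.61%. For ZT6 against ZT0 there were 8 members beside 4.13% of all genes, of which *Hmgcs1*, *Mvk*, *Mvd*, *Fdft1*, *Lss*, *Cyp51* and *Msmo1* were higher at ZT6 and *Scd1* lower. For ZT12 against ZT0 there were 8 beside 9.96%, all higher at ZT12: *Idi1*, *Sqle*, *Lss*, *Cyp51*, *Nsdhl*, *Hsd17b7*, *Srebf2* and *Stard4*. ZT18 against ZT0 gave 0 beside 5.02%. ZT12 against ZT6 gave 3 beside 6.78% (*Mvd* lower, *Scd1* and *Scd2* higher), ZT18 against ZT6 gave 3 beside 6.71% (*Mvd*, *Lss* and *Insig1*, all lower), and ZT18 against ZT12 gave 2 beside 9.03% (*Acly* and *Stard4*, both lower). In the same order of 9 comparisons edgeR gave 4, 3, 0, 6, 8, 0, 3, 3 and 2 members. DESeq2 gave 8, 4, 1, 10, 11, 1, 3, 4 and 4. The shares of all genes above are from limma. Those under edgeR and DESeq2 are not given here, so their counts of members have no background to be read against.

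Many differences of the members depended on single libraries. Those named above at an unadjusted p under 0.05 for a pair of time points kept their direction when 1 library of the pair was left out. Several of them, such as that of *Hmgcs1* for ZT6 against ZT0, moved by more than 1.5 times. Of all 186 differences of a member between 2 time points, named above or not, 162 moved by more than 1.5 times or turned when 1 library of the pair was left out. Of these, 77 turned. The counts that follow come from fits with only 1 library at some time points. Shares of all genes in those fits are not given here, so these counts have no background to be read against. The 7 of the cosine became 2 without ZT0 replicate 2 or without ZT12 replicate 1, 3 without ZT6 replicate 2 or without ZT18 replicate 2, 4 without ZT6 replicate 1 and 14 without ZT18 replicate 1. The 8 of ZT6 against ZT0 became fewer without either ZT6 library or without ZT0 replicate 2. They became more without ZT0 replicate 1 or without either ZT18 library. The 8 of ZT12 against ZT0 became 0 without ZT12 replicate 1, 3 without ZT0 replicate 2 and 13 without ZT0 replicate 1. The 2 of the F-test became 10 without ZT0 replicate 1, 9 without ZT18 replicate 1, 6 without ZT0 replicate 2 or without ZT18 replicate 2, 1 without ZT6 replicate 1 and 0 without ZT6 replicate 2. The counts of the other comparisons ran from 0 to 9 as libraries were left out in turn, with 7 for ZT18 against ZT0 without ZT18 replicate 2, 9 for ZT18 against ZT6 without ZT18 replicate 1, and 0 without ZT12 replicate 1 when ZT12 was set against either ZT6 or ZT18. With ZT0 replicate 2 and ZT12 replicate 1 both left out, they were 2 for the cosine, 3 for ZT6 against ZT0 and 2 for ZT12 against ZT0.

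The order of the time points was alike in many members. The mean of the 2 libraries was lowest at ZT0 in 18 of 31 members and highest there in 0, while ZT0 was the lowest of the 4 time points in 23.6% and the highest in 23.5% of all genes tested. The mean was highest at ZT12 in 19 members and at ZT6 in 10, against 30.3% and 21.0% of all genes. The fitted peak of the cosine lay between 6 and 12 h in 24 members, or 77.4%, and in 27.2% of all genes. The comparisons with ZT0 share its 2 libraries, so they are not independent of one another.

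Both libraries at ZT6 lay above both at ZT0 in 18 members and below in 1, beside 18.9% and 18.7% of all genes. For ZT12 against ZT0 the numbers were 17 above and 1 below, beside 20.7% and 20.3%. For ZT18 against ZT0 they were 6 and 1, beside 13.6% and 13.9%. For ZT12 against ZT6 they were 8 and 3, beside 23.5% and 22.2%. ZT18 lay wholly above ZT6 in 1 member and below in 11, beside 19.2% and 18.8%, and wholly above ZT12 in 1 and below in 14, beside 17.8% and 18.7%. The share of members above ZT0 at ZT6 was 58.1%, and the share below ZT12 at ZT18 was 45.2%.

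On the log2 scale the median difference over the 31 members was 0.32 for ZT6 against ZT0, where that over all genes was 0.01, and 0.33 for ZT12 against ZT0, where that over all genes was also 0.01. It was 0.10 for ZT18 against ZT0, and between the later time points 0.09 for ZT12 against ZT6, -0.18 for ZT18 against ZT6 and -0.30 for ZT18 against ZT12. For the active against the resting time points it was 0.07, and it was -0.03 with ZT0 replicate 2 and ZT12 replicate 1 both left out. Without ZT0 replicate 2 the median was 0.13 for ZT6 against ZT0 and 0.21 for ZT12 against ZT0; with ZT12 replicate 1 left out as well, the latter was 0.09, and without ZT12 replicate 2 it was 0.52. The direction from ZT0 to ZT6 and ZT12 was the same in each of these fits, while its size depended on which ZT0 and ZT12 library was used. The plot of differences from ZT0 gives each member with its standard error.

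**Figure D2:**
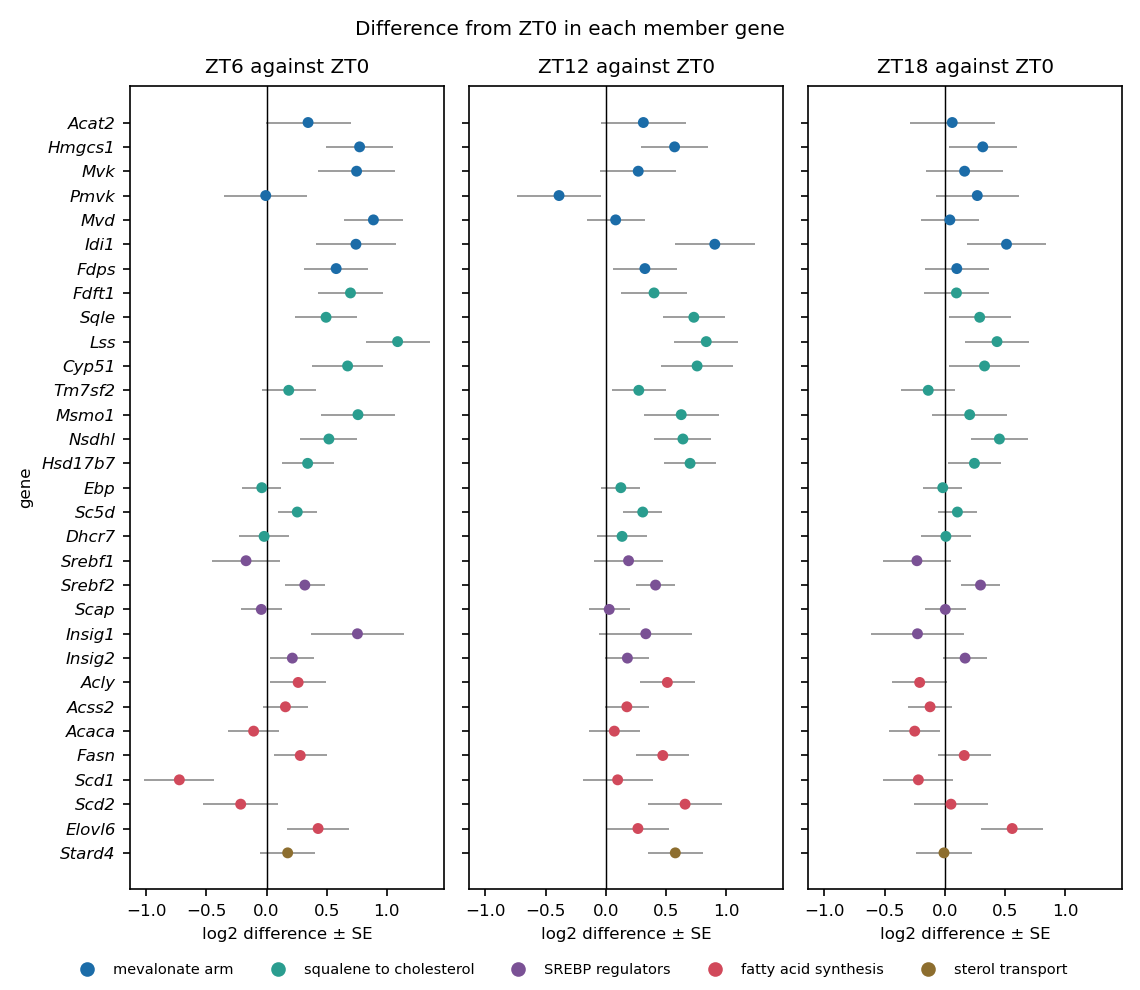
Difference in mean log2(normalised count + 1) from ZT0 at ZT6, ZT12 and ZT18 for each of the 31 member genes, as limma estimate ± SE with 2 libraries per time point, coloured by step of the pathway. The points lie right of 0 in 23 of 31 genes at ZT6, in 30 at ZT12 and in 22 at ZT18, and none passed the adjusted threshold.

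In the mevalonate arm 6 of 7 genes were wholly higher at ZT6 than at ZT0, with a median difference of 0.74 on the log2 scale. *Mvd*, which removes carbon dioxide from mevalonate pyrophosphate, had 808 and 978 normalised counts in the ZT0 libraries, 1497 and 1808 in those of ZT6, 835 and 1061 in those of ZT12, and 1131 and 741 in those of ZT18, in replicates 1 and 2. Both ZT6 libraries lay above the other 6, which overlapped. The difference was 0.89 ± 0.24 (SE, n = 2 per time point) on the log2 scale for ZT6 against ZT0, with an adjusted p of 1.00 by limma, and -0.80 ± 0.24 for ZT12 against ZT6.

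*Idi1*, the isomerase that makes the 2 forms of the isoprene unit interchangeable, had 525 and 356 normalised counts in the ZT0 libraries, 594 and 884 in those of ZT6, 1034 and 639 in those of ZT12, and 760.4 and 503 in those of ZT18. Its highest library was ZT12 replicate 1 and its lowest ZT0 replicate 2, its ZT6, ZT12 and ZT18 libraries overlapped one another, and ZT0 overlapped ZT18. The difference was 0.91 ± 0.33 on the log2 scale for ZT12 against ZT0, with an adjusted p of 0.443 by limma. It was 0.56 without ZT12 replicate 1, 0.63 without ZT0 replicate 2 and 0.28 without either. *Hmgcs1* read 4286 and 2786 at ZT0 and 5166 and 6754 at ZT6, where it was 0.77 ± 0.28 higher on the log2 scale (adjusted p = 1.00 by limma), or 0.46 higher without ZT0 replicate 2.

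*Mvk* and *Pmvk*, the kinases that phosphorylate mevalonate in turn, and *Fdps*, which makes farnesyl pyrophosphate, had replicates far apart at ZT18. *Mvk* had 922 and 444 normalised counts there, *Pmvk* 1032 and 508, and *Acat2*, the thiolase of the first step, 1104 and 467. All 7 genes of the arm were higher in replicate 1 than in replicate 2 at ZT18, by 0.60 to 1.24 on the log2 scale. *Pmvk* was the exception to the order of the time points: its mean was lowest at ZT12, with 424 and 496, and highest at ZT18. *Fdps* shares exon sequence with the model *Gm43738* on the same strand, so its counts may hold reads of both, and the exons of *Hmgcs1* and *Idi1* overlap models on the other strand.

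From squalene to cholesterol, 9 of 11 genes were wholly higher at ZT6 than at ZT0 and 7 of 11 wholly higher at ZT12 than at ZT0, with medians of 0.49 and 0.63 on the log2 scale. *Lss*, the cyclase that makes lanosterol, had the smallest p of the members in the cosine fit. It had 586 and 669.7 normalised counts in the ZT0 libraries, 1117 and 1593 in those of ZT6, 1352 and 927 in those of ZT12, and 1011 and 710.2 in those of ZT18. The ZT0 libraries were the lowest 2, and those of the other time points overlapped apart from ZT18, which lay wholly below ZT6. The fitted cosine had an amplitude of 0.53 on the log2 scale, from mean to peak, and a peak at 9.46 h (adjusted p = 0.469 by limma), and the mean at ZT6 was 2.16 times that at ZT0, a log2 difference of 1.09 ± 0.27. The exons of *Lss* overlap those of *4930483K19Rik* on the other strand, and whether reads were counted by strand is not given in the sources used here.

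*Sqle*, the squalene epoxidase, had 2192 and 1238 normalised counts in the ZT0 libraries, 2219 and 2427 in those of ZT6, 3112 and 2411 in those of ZT12, and 2052 and 1979 in those of ZT18. ZT0 replicate 2 stood alone at the bottom, while ZT0 replicate 1 lay close to ZT6 replicate 1. The difference for ZT12 against ZT0 was 0.73 ± 0.26 on the log2 scale, with an adjusted p of 0.427 by limma. It was 1.15 without ZT0 replicate 1, 0.32 without ZT0 replicate 2 and 0.14 with ZT12 replicate 1 left out besides the latter.

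*Hsd17b7*, a ketosteroid reductase that acts in the removal of methyl groups from lanosterol, had close replicates at ZT0, with 371 and 363 normalised counts. Those of ZT6 had 403 and 537, those of ZT12 655 and 545, and those of ZT18 458 and 415. Both ZT12 libraries lay above the other 6 and both ZT0 libraries below them. The difference for ZT12 against ZT0 was 0.70 ± 0.22 on the log2 scale, with an adjusted p of 0.387 by limma, and in an exact rank test against cosine orders *Hsd17b7* and *Srebf2* were the 2 members that reached 0.0190, the smallest p that test can give for a peak at a sampled time (adjusted p = 0.877). In that test 2.06% of all genes had an unadjusted p under 0.05.

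*Nsdhl*, the dehydrogenase of the same demethylation, had 429 and 632 normalised counts in the ZT0 libraries, 670.2 and 831 in those of ZT6, 890.4 and 744 in those of ZT12, and 775 and 659 in those of ZT18. Here ZT0 replicate 1 was the lowest library, unlike in *Sqle*, and both ZT0 libraries lay below all others. The difference for ZT12 against ZT0 was 0.64 ± 0.24 on the log2 scale (adjusted p = 0.449 by limma), 0.36 without ZT0 replicate 1 and 0.92 without ZT0 replicate 2. *Cyp51*, the lanosterol demethylase, had 2590.4 and 1459.8 in the ZT0 libraries, 2685 and 3585 in those of ZT6, 3938 and 2757 in those of ZT12, and 2741 and 2184 in those of ZT18.

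On the log2 scale the ZT0 libraries of *Cyp51* differed by more than those of any later time point, and ZT0 replicate 2 was the lowest library. Its difference for ZT12 against ZT0 was 0.76 ± 0.30 on the log2 scale (adjusted p = 0.472 by limma), 0.35 without ZT0 replicate 2 and 0.50 without ZT12 replicate 1. The exons of *Cyp51* overlap those of *Akap9*, and those of *Fdft1* overlap those of *Ctsb*, on the other strand. *Fdft1*, the squalene synthase, and *Msmo1*, the methyl sterol oxidase, were 0.70 ± 0.27 and 0.76 ± 0.31 higher at ZT6 than at ZT0 on the log2 scale (adjusted p = 1.00 by limma for both), and 0.37 and 0.34 higher without ZT0 replicate 2. The last steps were flatter: *Ebp*, the sterol isomerase, ranged from 1163 to 1397 normalised counts over the 8 libraries, *Sc5d*, the sterol desaturase, from 1565 to 2203, and *Dhcr7*, the reductase that ends the pathway, from 1777 to 2546. Their cosine amplitudes were 0.06, 0.17 and 0.07 on the log2 scale, and the median amplitude over all genes was 0.23. *Tm7sf2*, a sterol reductase with a range of 386 to 662, shares exon sequence with *Vps51* on the same strand, so its counts may hold reads of both.

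Among the regulators, *Srebf2* had 4499.5 and 3818 normalised counts in the ZT0 libraries, 5126 and 5207 in those of ZT6, 5776 and 5286 in those of ZT12, and 5282 and 4915 in those of ZT18. Both ZT0 libraries were below all others and both ZT12 libraries above all others, with ZT18 replicate 1 just under them. The SD within time points was 0.10 on the log2 scale, and the difference for ZT12 against ZT0 was 0.41 ± 0.17 on the log2 scale, with an adjusted p of 0.472 by limma.

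*Srebf1* had 2061 and 1560.5 normalised counts in the ZT0 libraries, 1547 and 1639 in those of ZT6, 2451 and 1709 in those of ZT12, and 1158 and 2016 in those of ZT18. Its time points overlapped, apart from ZT12 above ZT6, and the ZT18 libraries differed from each other by more than the means of any pair of time points. Its amplitude in the cosine fit was 0.10 on the log2 scale (adjusted p = 0.933 by limma). The exons of *Srebf1* overlap those of *Rai1* on the other strand.

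*Insig1*, itself a target of SREBP that retains SCAP in the endoplasmic reticulum, varied most between replicates. It had 2637 and 1114 normalised counts in the ZT0 libraries, 2558 and 3273 in those of ZT6, 2825 and 1652 in those of ZT12, and 1582 and 1356 in those of ZT18. The ZT0 libraries differed from each other by more than the means of any pair of time points. ZT18 lay wholly below ZT12 and below ZT6, the latter by 0.98 ± 0.39 on the log2 scale (adjusted p = 0.719 by limma).

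*Insig2*, which retains SCAP in the same way, had 745 and 712 normalised counts in the ZT0 libraries, 845 and 844 in those of ZT6, 885 and 770.2 in those of ZT12, and 733 and 915 in those of ZT18. Both ZT0 libraries lay below those of ZT6 and ZT12 and overlapped those of ZT18. *Scap* was the flattest member in the cosine fit, with an amplitude of 0.03 on the log2 scale.

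*Scap* had 1479 and 1318 normalised counts in the ZT0 libraries, 1438 and 1275 in those of ZT6, 1541 and 1318 in those of ZT12, and 1475 and 1331 in those of ZT18. In each time point replicate 1 was higher than replicate 2, and all 4 time points overlapped. The plot of 8 members by time shows the libraries behind these statements.

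**Figure D3:**
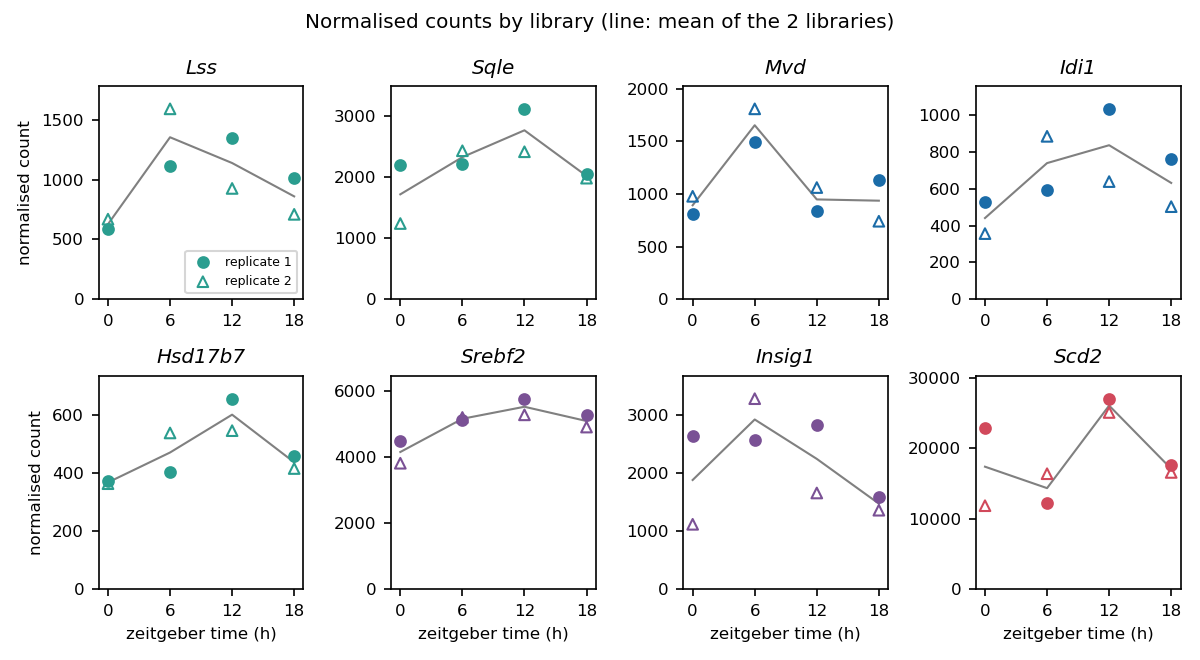
Normalised counts of *Lss*, *Sqle*, *Mvd*, *Idi1*, *Hsd17b7*, *Srebf2*, *Insig1* and *Scd2* against zeitgeber time in h; filled circles are replicate 1, open triangles replicate 2, and the line joins the means of 2 libraries. *Mvd* is highest at ZT6 with 1497 and 1808, *Scd2* at ZT12 with 27052 and 25091, and the ZT0 libraries of *Insig1* lie apart at 2637 and 1114.

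Fatty acid synthesis genes showed no common order between ZT0 and ZT6. In 1 of 7 genes, *Elovl6*, the elongase of palmitate, ZT6 lay wholly above ZT0, and in 1, *Scd1*, wholly below, with a median difference of 0.16 on the log2 scale; for ZT12 against ZT0 the median was 0.27 and 7 of 7 differences were above 0. *Scd2* had 22929.6 and 11847 normalised counts in the ZT0 libraries, 12293 and 16390.3 in those of ZT6, 27052 and 25091 in those of ZT12, and 17622 and 16573 in those of ZT18. Both ZT12 libraries lay above all others, with ZT0 replicate 1 next. The difference for ZT12 against ZT6 was 0.88 ± 0.31 on the log2 scale, with an adjusted p of 0.705 by limma.

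*Scd1* had its lowest mean at ZT6, 627 ± 67.5 normalised counts (SD, n = 2), against 1037 ± 111 at ZT0 and 1122 ± 246 at ZT12. The log2 difference was -0.73 ± 0.29 for ZT6 against ZT0 (adjusted p = 1.00 by limma) and 0.83 ± 0.29 for ZT12 against ZT6 (adjusted p = 0.705 by limma). *Acly* had means of 5984 ± 557 normalised counts at ZT12 and 3638 ± 482 at ZT18 (SD, n = 2 for both), a log2 difference of -0.72 ± 0.23 (adjusted p = 0.520 by limma). *Acaca*, the lowest member per kb, had 1257 and 1117 normalised counts in the ZT0 libraries, 1041 and 1162 in those of ZT6, 1531 and 1015 in those of ZT12, and 984 and 1010.2 in those of ZT18.

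The ZT12 libraries of *Acaca* spanned most of the range of the gene, and both ZT18 libraries lay below the other 6. *Fasn*, the fatty acid synthase, ranged from 3451 to 6290.1 normalised counts and was 0.48 ± 0.22 higher at ZT12 than at ZT0 on the log2 scale (adjusted p = 0.510 by limma), or 0.26 higher without ZT12 replicate 1. *Acss2*, which makes acetyl-CoA from acetate, ranged from 1568 to 2227, and its exons overlap those of *Ggt7*, *Acss2os* and *Gss* on the other strand. *Elovl6* was the fatty acid gene whose mean was highest at ZT18, with 2086 and 3241 normalised counts there. *Stard4*, which carries cholesterol between membranes in the cytosol, had log2 differences of 0.58 ± 0.23 for ZT12 against ZT0 and, between ZT18 and ZT12, -0.59 ± 0.23 (adjusted p = 0.472 and 0.525 by limma). They were 0.33 without ZT0 replicate 2 and -0.38 without ZT12 replicate 1.

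The members also moved together between replicates of the same time point. At ZT0 replicate 1 was higher than replicate 2 in 25 of 31 members, at ZT6 in 5, at ZT12 in 25 and at ZT18 in 22, while over all genes the share was between 49.2% and 50.4%. The median difference of replicate 1 from replicate 2 over the members was 0.29, -0.25, 0.26 and 0.15 on the log2 scale at ZT0, ZT6, ZT12 and ZT18. These are close in size to the medians between time points given above. The median spread of a member within time points was 0.32 on the log2 scale (SD, n = 2 per time point), against 0.29 for all genes tested and 0.21 for the 7440 genes with a mean of at least 300 normalised counts.

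By library, 18 of 31 members were highest in ZT12 replicate 1 and 15 were lowest in ZT0 replicate 2, where 19.9% and 13.5% of all genes were. ZT6 replicate 2 was the highest library for 8 members, 7 of which belong to the sterol steps. The median deviation of the members from their own means was 0.36 on the log2 scale in ZT12 replicate 1 and -0.33 in ZT0 replicate 2, and between -0.15 and 0.22 in the other 6 libraries. ZT12 replicate 1 had the highest smooth muscle and fibroblast markers, and ZT0 replicate 2 the highest B cell, plasma cell and myeloid markers. ZT0 replicate 2 was also next highest for fibroblast markers, at 673. ZT12 replicate 1 was next highest for B and plasma cell markers, at 1107, and for myeloid markers, at 522. For smooth muscle markers ZT12 replicate 2 was next, at 257, with ZT0 replicate 2 at 98.9. In bulk samples fewer cells of a type and less RNA per cell cannot be told apart, and the part of other cells in the levels of these genes was not tested.

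**Figure D4:**
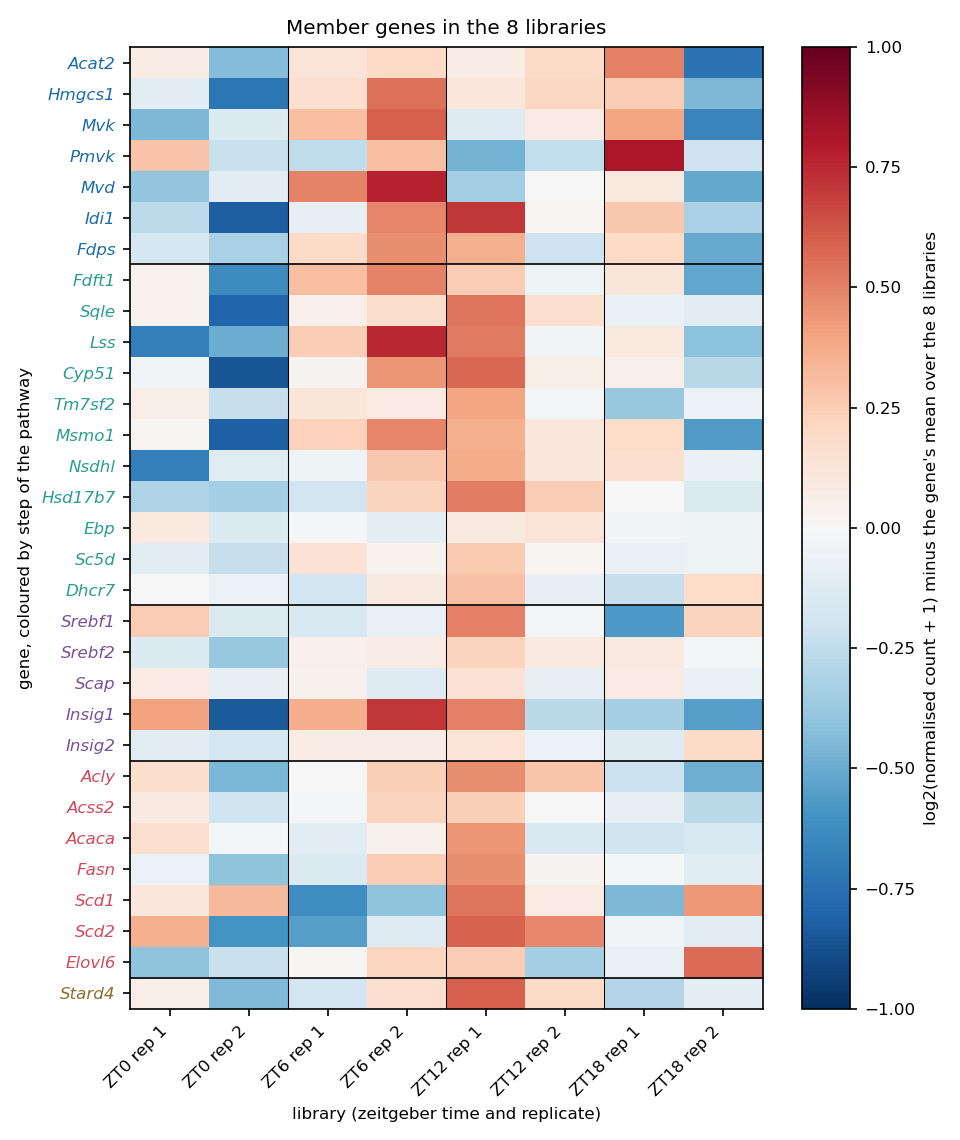
Heat map of 31 member genes (rows, grouped by step of the pathway) in 8 libraries (columns), as log2(normalised count + 1) minus the gene's mean over the libraries, red higher and blue lower. The column of ZT12 replicate 1 is mostly red (median 0.36) and that of ZT0 replicate 2 mostly blue (median -0.33), and replicates of a time point differ within most rows.

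Across the 8 libraries the members correlated with one another. The median of Pearson's r over 465 pairs of members was 0.43, from -0.84 for *Mvd* with *Scd1* to 0.98 for *Fdft1* with *Msmo1*, and the median over all pairs of genes tested was 0.0. An r over 0.8 was reached by 13.5% of the pairs of members and by 1.84% of all pairs. Among the 18 genes from *Acat2* to *Dhcr7* the median was 0.53 over 153 pairs, and among the 7 fatty acid genes 0.47 over 21 pairs. The points share the same 8 libraries, with their differences in time, cell content and mitochondrial share, so these values describe the libraries and carry no test.

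*Srebf2* correlated with the 18 sterol genes with a median r of 0.67, highest with *Sqle* at 0.91 and lowest with *Pmvk* at 0.01. *Insig1* had a median of 0.64 and *Hmgcs1* one of 0.74 with the other sterol genes. *Srebf1* had a median of -0.02 and was highest with *Dhcr7* at 0.86. *Scd1* had a median of -0.31, with 14 of 18 values below 0, and its r with *Srebf1* was 0.73. *Pmvk* stood apart among the sterol genes, with r to the others between -0.60 with *Tm7sf2* and 0.53 with *Acat2*, as the matrix of correlations shows.

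**Figure D5:**
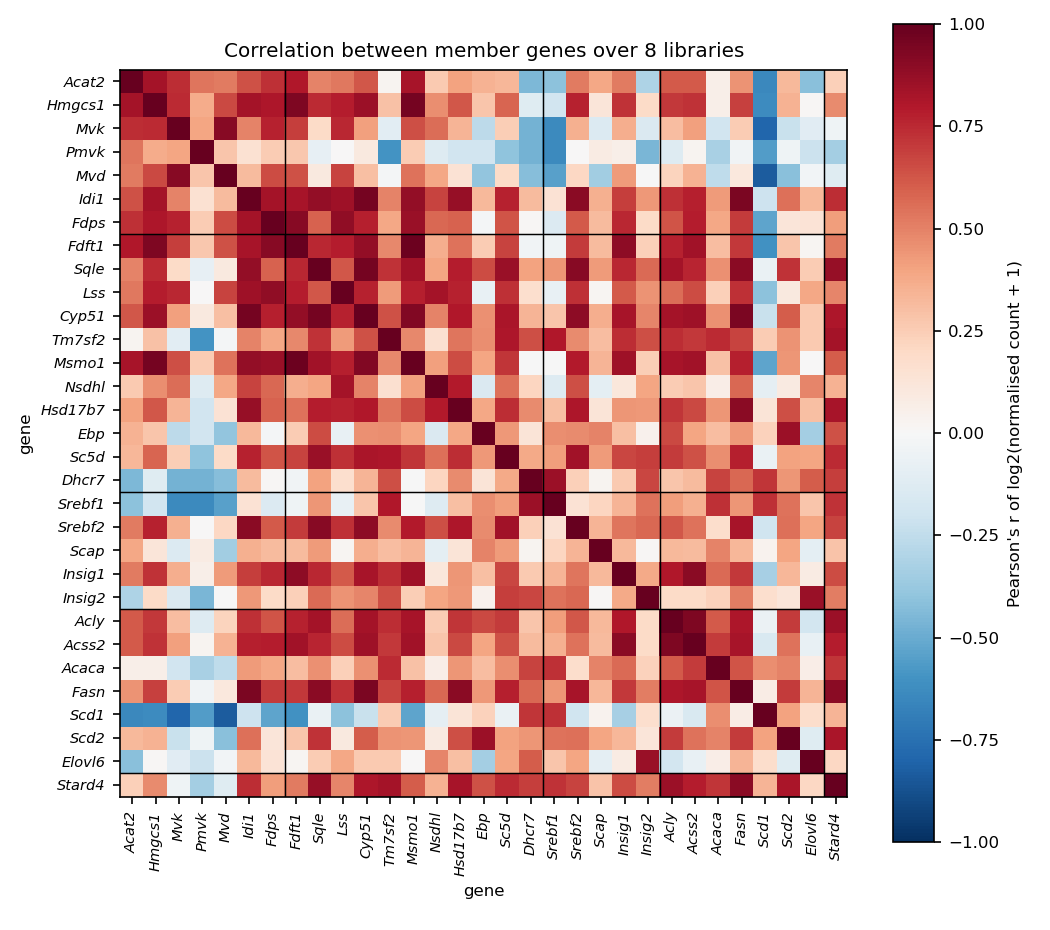
Pearson's r of log2(normalised count + 1) over 8 libraries for each pair of the 31 member genes, grouped by step of the pathway, from blue (-1) to red (1). The sterol genes form a mostly red block (median 0.53), apart from *Pmvk*, *Ebp* and *Dhcr7*, while *Scd1* runs against the 7 mevalonate genes (from -0.84 with *Mvd* to -0.21 with *Idi1*).

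Further genes of the pathway were read from 4 lists that hold other sterol synthesis enzymes (5 genes), the machinery that processes SREBP (6), sterol uptake, traffic and efflux (18), and other genes of fatty acid synthesis and activation (18 of 20 listed). Limma called 0 of these 47 genes in each of the 9 comparisons. At an unadjusted p under 0.05 the cosine took 9 of 47, or 19.1%, beside 9.15% of all genes. ZT6 against ZT0 took 4, or 8.51%, beside 4.13%, and ZT12 against ZT0 took 9, or 19.1%, beside 9.96%, of which 6 were higher and 3 lower at ZT12. Both ZT6 libraries lay above both ZT0 libraries in 12 of the 47 and below in 5, beside 18.9% and 18.7% of all genes, and the fitted peak lay between 6 and 12 h in 17, or 36.2%, beside 27.2%. The lists differed in their medians. For ZT12 against ZT0 the median log2 difference was 0.61 over the other sterol synthesis enzymes, 0.33 over the SREBP processing genes, 0.20 over the other fatty acid genes and -0.01 over the genes of uptake, traffic and efflux, where 9 of 18 were higher and 9 lower. For ZT6 against ZT0 these medians were 0.09, 0.07, 0.17 and -0.05.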

How the data were processed

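Gene expression in mouse colonic crypts was measured by RNA-seq in 8 libraries, 2 at each of 4 times. The authors aligned reads with STAR to GRCm38 (mm10) and named DESeq2. The annotation, the counting and its use of strand are not given in the sources used here. Each library column is a signal deposited as read counts divided by 1 size factor (normalised counts); reads were recovered by dividing by the smallest step, and 100% of values came out whole within 0.1 read. The remaining columns hold the authors' own comparison (log2 fold change, SE, statistic, p and adjusted p) and were not used.

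Log2(normalised count + 1) of 13503 genes with a mean of at least 10 was fitted with limma 3.58.1 in R 4.3.3 (eBayes with trend), all 8 libraries in 1 fit, with Benjamini-Hochberg adjustment over all genes. edgeR 4.0.16 and DESeq2 1.42.0 on recovered reads, other scalings and filters, a replicate block, an exact two-sided rank test and leaving out each library were alternatives. A fold on this scale understates low genes. The code was tested on simulated data. Libraries are named by their labels. Recovered reads over the genes of the table summed to 14722342 to 25159440 per library. Exon lengths and positions came from GENCODE M21 (14244 of 14247 identifiers matched).

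Members and lists were chosen with earlier results of these data known. Values per library are given for members called in any comparison, the 5 with the smallest p in the cosine, active-against-resting and ZT12-against-ZT0 fits, the regulators, and the highest and lowest member per kb; other members are given by range, count or the comparison in which they stood out, the latter chosen after their values were seen.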

Additional observations from a re-analysis of the deposited data

How the results depend on the processing

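The count of members called was recomputed 154 times under 18 other settings and was 0 each time; the smallest adjusted p was 0.0746, with DESeq2. Adding the replicate number as a block also gave 0 members called in each of 9 comparisons and moved the members at an unadjusted p under 0.05 from 7 to 9 for the cosine. The labels do not say whether same-numbered libraries belong together. The correlations of same-numbered deviations from the time-point means ran from -0.29 to 0.22. With 2 libraries per time point they cannot exclude that same-numbered libraries share an origin. Leaving out each library in turn gave from 0 to 0 members called. Without a trend in eBayes, the members at an unadjusted p under 0.05 were 2 for the cosine, 2 for ZT6 against ZT0 and 3 for ZT12 against ZT0, and with scaling outside mitochondrial genes they were 10, 7 and 7. Shares of all genes under these settings and under the block are not given here, so these counts have no background to be read against. The median difference over the members ranged from 0.13 to 0.43 for ZT6 against ZT0 and from 0.09 to 0.52 for ZT12 against ZT0. Of 14 named members, 1 comparison each was recomputed under the other settings; of these 238 values, 3 reversed, all of *Scap* for ZT12 against ZT6: -0.013 without ZT6 replicate 2, and -0.039 both without ZT12 replicate 1 and with ZT0 replicate 2 left out too, an alternative chosen after seeing the data. Leaving out 1 library gave -0.039 to 0.19 for it. The cause was not tested. Over all 6 pairs of time points, 77 of 186 differences of the 31 members reversed when 1 library of the pair was left out. At 327 reads, the fewest of any member in a library, counting error alone is an SD of 0.080 on the log2 scale, beside a median spread within time points of 0.32; other effects of depth were not tested.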
